A study of Mus musculus with 3 samples.

Results

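The cells described here are thymic epithelial cells of the fetal mouse thymus that carried the keratin transcripts *Krt5*, *Krt17* or both, a pair typical of the medullary lineage. They were chosen from single-cell RNA-Seq counts of unique molecular identifiers (UMIs, each standing for 1 captured RNA molecule). A barcode counted as a member when it held *Epcam* and no *Ptprc*, fewer than 20 *Pth* UMIs, and at least 10 UMIs of *Krt5* and *Krt17* together, provided that this sum was larger than that of the cortical genes *Psmb11*, *Prss16* and *Ccl25*. There were 856 members among 7043 Epcam+ epithelial cells, 16365 cells kept by the quality filters and 24616 barcodes in all. Because these counts chose the cells, the levels of the genes in the rule are a description.

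Thymic lobes were taken from C57BL/6 embryos at E13 to E13.5, dispersed with trypsin and captured on a 3′ droplet platform, with 1 library for each of 3 genotypes. The control library is from Tbx1+/+ embryos. The library labelled Tbx1neo2/neo2 is from a line with a neomycin cassette inserted in an intron of *Tbx1*, a model of the thymic hypoplasia of 22q11.2 deletion syndrome. The Foxn11089/1089 library is from embryos homozygous for a mutant allele of *Foxn1*, whose thymic lobes are also small. The number and sex of the embryos behind each library are not given in the sources used here. With 1 library per genotype no difference between genotypes could be tested, so every value below describes 3 libraries, and intervals cover counting error only.

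*Tbx1* did not mark the labelled library: over all kept cells it held 114 UMIs (1.47 CPM, counts per 1000000 UMIs) in the control library, 642 UMIs (5.04 CPM) in the library labelled Tbx1neo2/neo2 and 1029 UMIs (6.37 CPM) in the Foxn11089/1089 library. The *Foxn1* allele cannot be checked from these 3′ counts, in which *Foxn1* stood at 40.3, 36.9 and 90.8 CPM. Depth differed, with total counts of 82936619, 137498422 and 204655055 UMIs, and the libraries shared 17 to 28 barcode sequences per pair, none of them a member in both. Throughout, values in a series of 3 stand in the order control, library labelled Tbx1neo2/neo2, Foxn11089/1089.

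Thymic epithelial cells divide into cortical cells, which select T cells on self-peptides and express *Psmb11*, *Prss16* and *Ccl25*, and medullary cells, which display tissue antigens to delete self-reactive T cells. Medullary cells share *Krt5* and *Krt14* with the basal layer of stratified epithelia. They mature under signals from lymphoid cells that reach the receptors RANK (*Tnfrsf11a*), CD40 and LTBR and pass through the noncanonical NF-kB proteins, kinase *Map3k14*, *Nfkb2* and *Relb*. Mature cells carry MHC class II, the chemokine *Ccl21a* and the regulators *Aire* and *Fezf2*. *Foxn1* is the transcription factor on which differentiation of both lineages depends.

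Promoter sequences of 5 genes on which the results turn are shown first. Each run is 250 bases immediately before the RefSeq transcription start, mouse build GRCm38.p6, printed 5′ to 3′ on the gene's strand. Capitals mark a match on either strand to GGGA, any 2 bases, then TTCC, an NF-kB type motif, in *Nfkbia*, *Cxcl10* and *Krt14*, which were low in members of the Foxn11089/1089 library, or to TGANTCA, an AP-1 type motif, in *Krtdap* and *Sprr1a*, which stood out in members of every library. The motifs were searched separately, and the *Cxcl10* window also holds TGANTCA, left in lower case. RefSeq starts need not match the ends of the GENCODE genes given further on, as for *Krt14*, whose window lies inside its GENCODE gene.
Nfkbia, chr12:55492648-55492897, minus strand: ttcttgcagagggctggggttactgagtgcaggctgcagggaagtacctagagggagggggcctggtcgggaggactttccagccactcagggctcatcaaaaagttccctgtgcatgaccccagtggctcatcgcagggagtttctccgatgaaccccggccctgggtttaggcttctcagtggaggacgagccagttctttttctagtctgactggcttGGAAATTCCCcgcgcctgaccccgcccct
Cxcl10, chr5:92348890-92349139, minus strand: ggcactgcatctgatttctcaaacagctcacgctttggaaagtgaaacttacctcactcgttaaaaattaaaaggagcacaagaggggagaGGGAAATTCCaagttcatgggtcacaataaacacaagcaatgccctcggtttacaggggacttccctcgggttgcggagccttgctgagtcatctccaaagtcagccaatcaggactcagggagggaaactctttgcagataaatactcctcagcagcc
Krt14, chr11:100206031-100206280, minus strand: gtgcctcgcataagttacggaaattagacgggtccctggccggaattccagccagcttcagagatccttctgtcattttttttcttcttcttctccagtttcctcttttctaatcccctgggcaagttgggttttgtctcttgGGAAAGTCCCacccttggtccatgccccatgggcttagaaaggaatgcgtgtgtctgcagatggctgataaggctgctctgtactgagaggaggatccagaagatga
Krtdap, chr7:30787655-30787904, plus strand: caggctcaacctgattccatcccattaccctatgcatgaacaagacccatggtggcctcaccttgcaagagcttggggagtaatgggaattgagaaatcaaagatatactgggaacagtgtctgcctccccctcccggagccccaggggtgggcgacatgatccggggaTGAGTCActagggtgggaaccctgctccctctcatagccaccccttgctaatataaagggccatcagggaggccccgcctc
Sprr1a, chr3:92485882-92486131, minus strand: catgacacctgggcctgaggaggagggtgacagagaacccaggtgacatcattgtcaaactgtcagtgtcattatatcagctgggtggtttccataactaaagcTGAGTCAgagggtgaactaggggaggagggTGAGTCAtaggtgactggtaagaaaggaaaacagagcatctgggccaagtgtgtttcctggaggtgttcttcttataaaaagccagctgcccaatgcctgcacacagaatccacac

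The first motif began 29, 159 and 107 bases before the start of *Nfkbia*, *Cxcl10* and *Krt14*. The second began 81 bases before that of *Krtdap*, and 146 and 116 bases before that of *Sprr1a*. Over all 32851 windows of this length, 1.21% held the first motif and 6.75% held TGANTCA. Of the 19 listed genes of the RANK, CD40, LTBR and NF-kB group, 14 had a window and 2 of these held the first motif, namely *Nfkb2* and *Nfkbia*. Of the 15 genes that most separated members from other epithelial cells, 8 had a window and 3 of these held TGANTCA, namely *Dmkn*, *Serpinb11* and *Sprr1a*. The windows were picked after the matches had been seen, and a match describes letters in a window, not binding.

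Members numbered 300 in the control library, 85 in the library labelled Tbx1neo2/neo2 and 471 in the Foxn11089/1089 library. Of all Epcam+ cells they made up 14.3% (95% exact interval from 12.9% up to 15.9%), 8.52% (from 6.86% up to 10.4%) and 11.9% (from 10.9% up to 12.97%). Cortical-like cells, which had at least 10 UMIs of the cortical genes and more of them than of *Krt5* and *Krt17*, made up 50.6%, 48.0% and 6.10%. There were thus 0.283, 0.177 and 1.95 members for each cortical-like cell. These values rest on the levels of *Psmb11*, *Prss16* and *Ccl25*, all lower in Foxn11089/1089 members than in control members. Cortical cells without these transcripts would not be counted, so the values are not a ratio of lineages. Without the condition on cortical genes the shares were 16.5%, 17.4% and 12.1% of Epcam+ cells, so the order of the control and the library labelled Tbx1neo2/neo2 rested on that condition. With at least 20 *Krt5* and *Krt17* UMIs per 10000, a limit chosen after seeing the data, they were 12.6%, 7.52% and 4.51%, so the Foxn11089/1089 share depended on the limit.

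**Figure D1:**
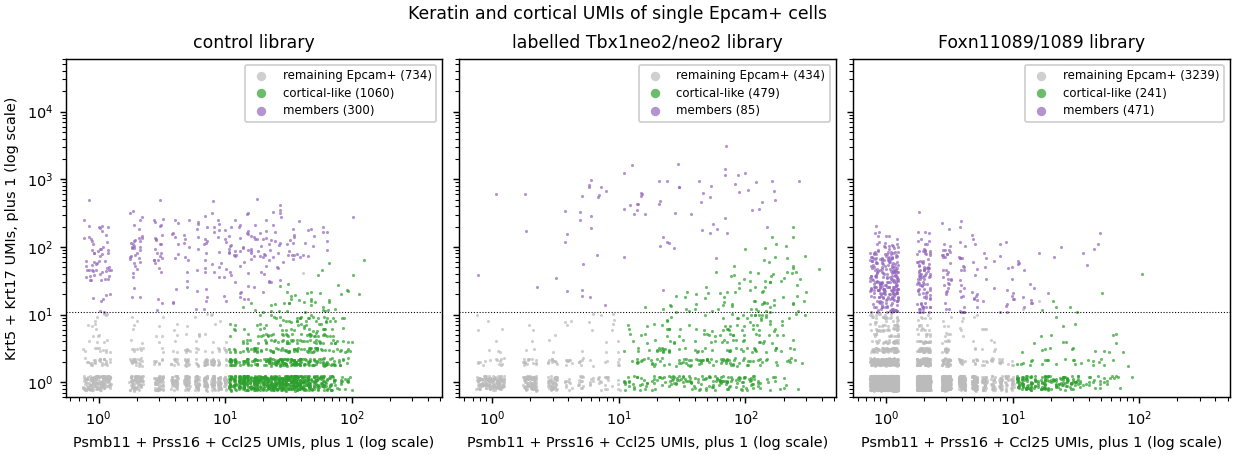
Summed *Krt5* and *Krt17* UMIs (vertical, log scale, plus 1) against summed *Psmb11*, *Prss16* and *Ccl25* UMIs (horizontal, log scale, plus 1) for each Epcam+ cell of the 3 libraries, with the dotted line at the limit of 10 UMIs. Members (300, 85 and 471) lie above the line, and in the Foxn11089/1089 library they crowd towards it, with a median keratin sum of 33 UMIs against 85.5 in the control.

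The members were unlike in depth and keratin content across libraries. Their median depth was 16320, 48282 and 22569 UMIs, and their median keratin sum was 53.7, 86.7 and 15.4 UMIs per 10000. In the Foxn11089/1089 library 276 of 471 members (58.6%) held no *Krt17* UMI, against 23 of 300 and 7 of 85 in the others. Cells just inside the limit, with 10 to 12 keratin UMIs, numbered 5, 0 and 49, and cells just outside, with 7 to 9, numbered 12, 8 and 38. Cortical UMIs persisted in members of the first 2 libraries: 37.7% and 67.1% of them had a cortical sum of at least 10, against 4.25% in the Foxn11089/1089 library. Likely doublets made up 10.7%, 5.88% and 12.3% of members and were kept.

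Set against the other Epcam+ cells of the same library, members were richer in genes of stratified epithelium. In each library genes with at least 30 UMIs over both groups of cells were compared, and a gene was called when its log2 ratio of summed CPM lay at least 2-fold from the median gene. Of all genes compared, 9.81%, 8.63% and 6.94% were called higher in members and 8.83%, 11.1% and 9.51% lower; the rule chose the cells from these counts, so the calls are read as description only. Of the markers given for these cells, *Krtdap* and *Perp* took no part in the rule. *Krtdap*, a secreted peptide of differentiating keratinocytes, stood at 1254, 865 and 459.9 CPM in members against 24.9, 8.099 and 36.4 CPM in other Epcam+ cells. *Perp*, a desmosomal membrane protein, stood at 729, 812 and 513 CPM against 118, 103 and 137 CPM. *Epcam* itself was called in none of the libraries, at 694, 759 and 1152 CPM.

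Of the 25, 25 and 26 genes of basal and stratified epithelium that could be compared, 20, 20 and 18 were called higher in members. *Pkp1*, a desmosomal plaque protein, stood at 48.7, 108 and 45.6 CPM in members against 2.46, 5.04 and 1.87 CPM in other Epcam+ cells. *Sprr1a*, a precursor of the cornified envelope, stood at 102, 67.1 and 49.99 CPM against 0.333, 0.0474 and 0.619 CPM, and it had the highest minimum ratio of the 3 libraries among genes outside the rule. Others named by that criterion were *Aldh3b2*, *Dmkn*, *Serpinb11*, *8430408G22Rik*, *Gsta2*, *Ifi202b*, *Upk2*, *2610528A11Rik*, *Rhov*, *Tgm1*, *Pkp1*, *Spink8* and *Sh2d4a*. *Dmkn*, a secreted epidermal protein whose gene (chr7:30763756-30781063) lies beside *Krtdap* (chr7:30787896-30791097, both plus strand, GRCm38), stood at 103, 115 and 15.4 CPM against 0.399, 0.213 and 0.2896 CPM. *Tgm1*, the transglutaminase that cross-links the cornified envelope, stood at 24.4, 36.3 and 15.9 CPM. The epidermal transcription factor *Grhl3* stood at 29.3, 56.6 and 45.00 CPM against 1.86, 3.48 and 6.05 CPM.

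Tight-junction genes went the same way, with 12, 9 and 12 of the 14, 15 and 15 compared called higher. The claudins *Cldn4* (76.2, 59.6 and 79.9 CPM) and *Cldn7* (251, 179 and 229.8 CPM) were among those called in every library. In contrast, of 14 genes of hemidesmosomes and basement membrane adhesion, 1 was called higher in the control library, 1, *Itgb4*, in the library labelled Tbx1neo2/neo2 and 0 in the Foxn11089/1089 library. *Trp63*, the master regulator of basal epithelia, was at 36.4, 99.3 and 64.4 CPM in members and 35.3, 74.2 and 84.4 CPM in other Epcam+ cells and was not called. Receptors *Notch1* (100.3, 224 and 174 CPM against 22.4, 28.8 and 50.8 CPM) and *Notch3*, and the Notch target *Nrarp* (98.4, 178 and 84.9 CPM against 28.8, 31.9 and 20.98 CPM), were called higher in members of each library. The ligand *Jag1* and *Heyl* were also called higher in each, whereas another ligand, *Dll4*, and *Hes6* were called lower. Of 15, 16 and 16 Notch genes compared, 7, 6 and 5 were called higher and 4, 4 and 3 lower. Over all genes 9.81%, 8.63% and 6.94% were called higher and 8.83%, 11.1% and 9.51% lower. *Pax1*, a thymic epithelial transcription factor, was at 598, 919.6 and 631 CPM in members against 663, 699 and 547 CPM, and was called in no library.

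**Figure D2:**
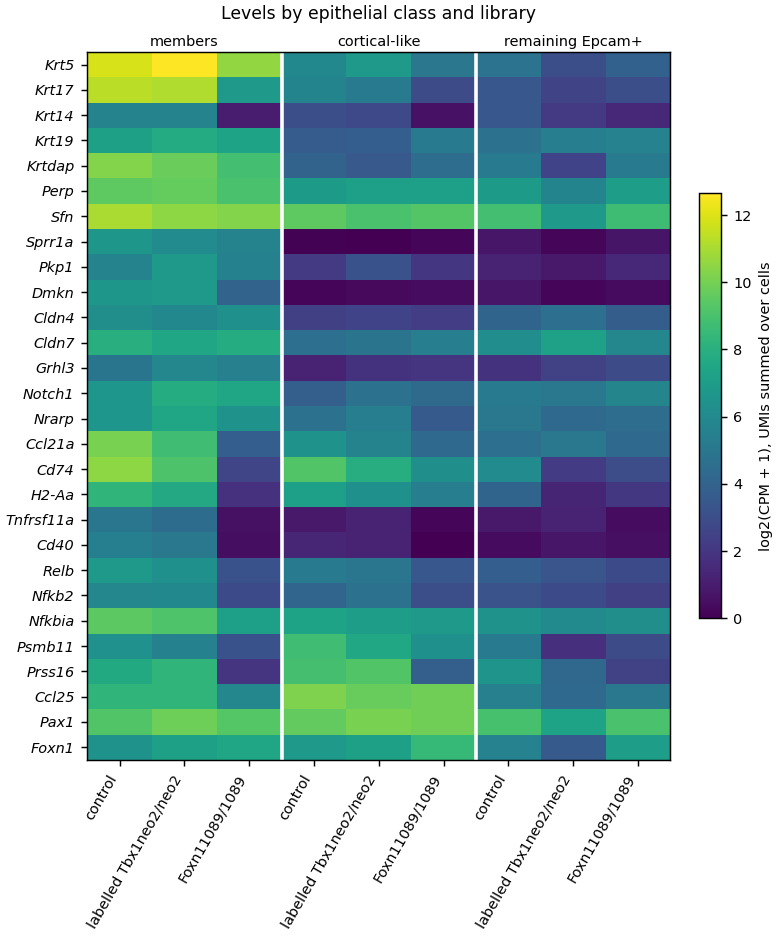
Levels of 28 genes, as log2(CPM + 1) of UMIs summed over cells, in members, cortical-like cells and remaining Epcam+ cells of each library (columns). *Krtdap*, *Sprr1a*, *Pkp1*, *Cldn4* and *Cldn7* are brighter in members of every library, whereas *Ccl21a*, *Cd74*, *H2-Aa*, *Cd40* and *Tnfrsf11a* are brighter in members of the control and the library labelled Tbx1neo2/neo2 than in members of the Foxn11089/1089 library.

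The medullary label held for the first 2 libraries and went against the mature medullary genes of the third. Of the genes of RANK, CD40, LTBR and NF-kB, 9 of 18, 9 of 18 and 0 of 19 were called higher in members than in other Epcam+ cells. Of the genes of mature medullary epithelium, 8 of 10, 8 of 12 and 0 of 9 were called higher and 0, 2 and 6 lower. Over all genes 9.81%, 8.63% and 6.94% were called higher and 8.83%, 11.1% and 9.51% lower. In lists this short, counts of 0 lie near a share of 6.94%, so the third library stood out by the 6 lower genes. The members of that library are therefore called Krt5/Krt17 cells here, by the sum in the rule that chose them, although 276 of 471 held no *Krt17* UMI.

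To ask how the cells differed between genotypes, UMIs were summed over the members of each library and compared with those of the control members. Genes with at least 30 UMIs over the pair were compared and called at 2-fold from the median gene, whose log2 ratio was 0.37 for the library labelled Tbx1neo2/neo2 and 0.30 for the Foxn11089/1089 library. Printed log2 ratios are plain ratios of CPM with their exact 95% counting interval. In the Foxn11089/1089 comparison 1065 of 11817 genes (9.01%) were called higher and 1390 (11.8%) lower, or 1916 and 916 when the ratios were not centred on the median. In the comparison of the library labelled Tbx1neo2/neo2, 505 of 10898 genes (4.63%) were called higher and 920 (8.44%) lower, or 1567 and 337 without centring. Lower genes thus made up 56.6% and 64.6% of the called genes with centring and 32.3% and 17.7% without it. A gene with a log2 ratio between -1 and the lower limit, -0.70 for the Foxn11089/1089 library and -0.63 for the library labelled Tbx1neo2/neo2, was called lower with centring only. The control library enters both comparisons.

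Genes of MHC class II antigen presentation were far lower in members of the Foxn11089/1089 library. *Cd74*, the invariant chain that escorts MHC class II, stood at 1429.7 CPM in the control library, 552 CPM in the library labelled Tbx1neo2/neo2 and 5.303 CPM in the Foxn11089/1089 library. Against control members this was a log2 ratio of -8.07 (from -8.44 to -7.73) for the Foxn11089/1089 library and -1.37 (from -1.43 to -1.31) for the library labelled Tbx1neo2/neo2. The class II chains were low there too: *H2-Aa* stood at 308, 196 and 2.496 CPM, *H2-Eb1* at 452, 268 and 4.68 CPM and *H2-Ab1* at 359.9, 387 and 13.4 CPM. Their log2 ratios in the Foxn11089/1089 library were -6.95 (from -7.50 to -6.44), -6.59 (from -6.99 to -6.22) and -4.75 (from -4.98 to -4.52). The 471 Foxn11089/1089 members held 68 *Cd74* UMIs in all, against 7428 in the 300 control members. In the library labelled Tbx1neo2/neo2, *H2-Aa* (log2 ratio -0.65, from -0.77 to -0.54) and *H2-Eb1* (log2 ratio -0.76, from -0.85 to -0.66) were called lower with centring only and lost that call under some of the alternatives, and *H2-Ab1* (log2 ratio 0.10, from 0.01 to 0.20) was not called.

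Class II was also low outside the members of that library, with ratios nearer to 0: in other Epcam+ cells the log2 ratios were -4.88 for *Cd74*, -3.85 for *H2-Aa* and -3.44 for *H2-Eb1*. *Ccl21a*, a chemokine that draws T cells to the medulla, stood at 1086 CPM in the control library, 427 CPM in the library labelled Tbx1neo2/neo2 and 12.9 CPM in the Foxn11089/1089 library, a log2 ratio of -6.40 (from -6.63 to -6.17) for the Foxn11089/1089 library. For the library labelled Tbx1neo2/neo2 it was -1.34 (from -1.42 to -1.27). Its near-identical copies share reads, so the count of *Ccl21a* alone is uncertain. *Spib*, a transcription factor of medullary cells, stood at 21.9, 38.9 and 0.156 CPM, and the 2 UMIs in the Foxn11089/1089 library gave a log2 ratio of -7.14 (from -10.20 to -5.25). *Fezf2* stood at 11.2, 3.95 and 0.07799 CPM, from 58, 20 and 1 UMIs. *Aire*, at 1.54, 2.17 and 0.156 CPM, had too few UMIs to be compared.

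Of the 18 listed mature medullary genes, 8 had enough UMIs to be compared, and in the Foxn11089/1089 library 7 of these were called lower (*Fezf2*, *Ccl21a*, *Spib*, *Cd74*, *H2-Aa*, *H2-Ab1* and *H2-Eb1*) and 1 higher, with a median log2 ratio of -6.59 against 0.30 over all genes. Over all genes 11.8% were called lower and 9.01% higher. The remaining 10 listed genes were under 30 UMIs. *Fezf2* and *Spib* reached that minimum through the control library alone, which favours a lower call. In the library labelled Tbx1neo2/neo2 5 were called lower and 1, *Dclk1*, higher, with a median of -0.70 against 0.37, where 8.44% of all genes were called lower.

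The receptors of medullary maturation differed in the same library. *Tnfrsf11a* (RANK) stood at 30.03 CPM in the control library, 21.3 CPM in the library labelled Tbx1neo2/neo2 and 0.468 CPM in the Foxn11089/1089 library, from 156, 108 and 6 UMIs. *Cd40* stood at 43.1, 32.6 and 0.3900 CPM, from 224, 165 and 5 UMIs. Neither was called in the library labelled Tbx1neo2/neo2, and both were near 0 in the Foxn11089/1089 library, with log2 ratios there of -6.004 (from -7.47 to -4.85) and -6.79 (from -8.43 to -5.54). *Ltbr*, the lymphotoxin receptor, stood at 46.00, 56.6 and 32.4 CPM and was not called (log2 ratio -0.51, from -0.74 to -0.27).

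Downstream, the kinase *Map3k14* stood at 13.3, 21.3 and 4.76 CPM and the noncanonical subunits *Relb* and *Nfkb2* at 111, 79.5 and 8.19 CPM and 56.4, 57.8 and 6.08 CPM. Their log2 ratios in the Foxn11089/1089 library were -1.48 (from -2.002 to -0.96), -3.76 (from -4.08 to -3.46) and -3.21 (from -3.59 to -2.85). The inhibitors and feedback genes that NF-kB is known to induce were low as well. *Nfkbia* stood at 705, 572 and 141 CPM (log2 ratio -2.32, from -2.40 to -2.24), *Nfkbie* at 18.7, 23.1 and 0.702 CPM (log2 ratio -4.73, from -5.90 to -3.75) and *Birc3* at 29.1, 39.1 and 3.98 CPM (log2 ratio -2.87, from -3.36 to -2.40). *Nfkbia* holds the motif shown above 29 bases before its start, and whether that match bears on its level was not tested. The canonical subunit *Rela*, at 25.6, 27.4 and 18.95 CPM, was not called, and neither were *Nfkb1*, *Traf2*, *Traf3*, *Traf5*, *Traf6*, *Birc2*, *Ikbkb* and *Chuk*.

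Of the 18 genes of this group that could be compared, 8 were called lower in the Foxn11089/1089 library, where 11.8% of all genes were, and 0 higher. Among those called lower, *Tnfrsf11a*, *Cd40* and *Nfkbie* reached the minimum count for comparison through the control library alone, which favours a lower call. In the library labelled Tbx1neo2/neo2 0 of 18 were called in either direction, where 4.63% of all genes were called higher and 8.44% lower. In a list this short a count of 0 lies near those shares. The median log2 ratio of the group was -0.60 in the Foxn11089/1089 library, against 0.30 over all genes. It was 0.30 in the library labelled Tbx1neo2/neo2, against 0.37 over all genes. In other Epcam+ cells of the Foxn11089/1089 library the ratios of the called genes were smaller, for example -1.95 for *Relb*, -1.53 for *Nfkb2* and -0.72 for *Nfkbia*. Their levels in members of that library were close to those in its other Epcam+ cells, as for *Relb* at 8.19 CPM in members and 6.45 CPM in the others, and *Nfkb2* at 6.08 and 4.48 CPM.

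**Figure D3:**
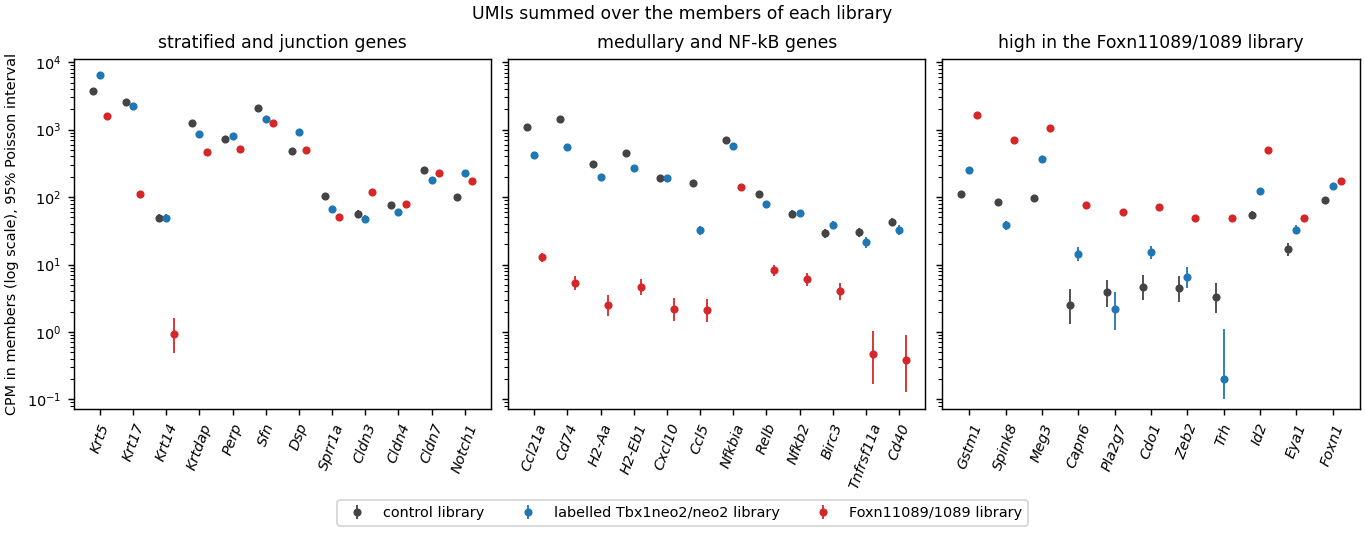
CPM of UMIs summed over members (vertical, log scale) for 35 genes in the 3 libraries, with bars for the 95% Poisson interval of the count and points or interval ends under 0.1 CPM drawn at 0.1. Medullary and NF-kB genes of the Foxn11089/1089 library lie below the other libraries, as for *Cd74* at 5.303 CPM against 1429.7 in the control, whereas *Gstm1*, *Spink8* and *Meg3* lie above them.

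Shares of cells gave the same order. After thinning each cell to 5000 UMIs, which kept 296, 83 and 468 members, the share of members with a *Cd74* UMI was 66.2% (60.5% to 71.6%), 46.99% (35.9% to 58.3%) and 2.14% (1.03% to 3.89%). Red blood cell barcodes, which serve as a measure of free RNA (median depth 6545, 18209 and 11911 UMIs), gave 2.47%, 0.279% and 0.143%. *Cd40* was seen in 20.3% (15.8% to 25.3%), 13.3% (6.81% to 22.5%) and 0% (0% to 0.785%) of members, an interval that limits cells with a UMI at this depth, not cells that express the gene. *Relb* was seen in 37.5% (31.97% to 43.3%), 30.1% (20.5% to 41.2%) and 3.63% (2.13% to 5.75%) of members, against 1.85%, 0% and 0.669% of red blood cell barcodes. *Nfkbia* remained common, in 84.8% (80.2% to 88.7%), 79.5% (69.2% to 87.6%) and 44.4% (39.9% to 49.1%) of members, against 2.47%, 2.51% and 2.77%. Without thinning, the shares were 74.3%, 72.9% and 6.58% for *Cd74*, 35.7%, 40.00% and 1.06% for *Cd40*, 66.00%, 78.8% and 15.5% for *Relb* and 96.00%, 97.6% and 84.1% for *Nfkbia*. *Ccl21a* was seen in 47.3% (41.5% to 53.2%), 34.9% (24.8% to 46.2%) and 5.34% (3.49% to 7.78%) of thinned members, against 0.617%, 0% and 3.34% of red blood cell barcodes and 53.00%, 50.6% and 18.05% of members without thinning.

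Chemokines other than *Ccl21a* were low in the Foxn11089/1089 members too. *Cxcl10*, a ligand of CXCR3, stood at 194 CPM in the control library, 189 CPM in the library labelled Tbx1neo2/neo2 and 2.18 CPM in the Foxn11089/1089 library, with a log2 ratio of -6.47 (from -7.07 to -5.93). Other Epcam+ cells had a log2 ratio of -0.35, at 1.96, 8.41 and 1.54 CPM, a level at which members of the Foxn11089/1089 library also stood. *Ccl5* stood at 162, 32.2 and 2.11 CPM (log2 ratio -6.27, from -6.88 to -5.72) and was also called lower in the library labelled Tbx1neo2/neo2 (log2 ratio -2.33, from -2.59 to -2.09). *Cxcl16* stood at 25.8, 19.7 and 2.42 CPM (log2 ratio -3.42, from -4.03 to -2.84). *Fxyd2*, a regulator of the sodium pump, stood at 82.96, 33.95 and 0.7799 CPM in members, with a log2 ratio of -6.73 (from -7.80 to -5.84) in the Foxn11089/1089 library against 0.03 in other Epcam+ cells. *Tbata*, a thymic stromal gene, stood at 143, 108 and 0.858 CPM (log2 ratio -7.38, from -8.39 to -6.54), and it was also low outside the members, with a log2 ratio of -5.84.

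Keratins differed in both directions. *Krt17* and *Krt5* belong to the rule, and their levels are given as description: *Krt17* stood at 2595, 2227 and 110.3 CPM and *Krt5* at 3748, 6399 and 1571 CPM. *Krt14*, the usual partner of *Krt5* in basal cells (chr11:100203162-100207548, in the same type I keratin cluster as *Krt15* and *Krt17*), stood at 49.5 CPM in the control library, 49.7 CPM in the library labelled Tbx1neo2/neo2 and 0.936 CPM in the Foxn11089/1089 library. Its log2 ratio in the Foxn11089/1089 library was -5.72 (from -6.70 to -4.89). *Krt6a*, a keratin of activated epithelia, stood at 44.7, 35.9 and 3.51 CPM (log2 ratio -3.67, from -4.16 to -3.20), and the simple-epithelial *Krt18* at 3753, 2610.4 and 769.7 CPM (log2 ratio -2.29, from -2.32 to -2.25). Its partner *Krt8* was not called, at 901, 2113 and 808 CPM. *Krt15*, a basal keratin, was the exception in the other direction, at 10.4, 17.96 and 69.3 CPM with a log2 ratio of 2.74 (from 2.34 to 3.16). Of 9 keratins compared, 6 were called lower in the Foxn11089/1089 library, *Krt5* and *Krt17* of the rule included, and 1 higher, and 0 were called in the library labelled Tbx1neo2/neo2. Over all genes 11.8% were called lower and 9.01% higher in the Foxn11089/1089 library.

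Most genes of the stratified list, which includes *Krt14* and *Krt15*, were not called. Of 25 compared in the Foxn11089/1089 library 8 were called lower (*Krt14*, *Sfn*, *Dsg2*, *Jup*, *Ly6d*, *Anxa8*, *Calml3* and *Sprr1a*) and 2 higher (*Krt15* and *Lgals7*), with a median log2 ratio of 0.00, *Sfn* and *Jup* with centring only. Over all genes 11.8% were called lower and 9.01% higher, so lower calls were more common in this list than among all genes. The log2 ratio was -1.45 (from -1.50 to -1.40) for *Krtdap*, -2.74 (from -2.98 to -2.50) for *Dmkn* and -1.03 (from -1.20 to -0.86) for *Sprr1a*, all called lower, whereas *Perp* (log2 ratio -0.51, from -0.56 to -0.45) was not called. Claudins *Cldn8* (7.12, 13.8 and 24.4 CPM) and *Cldn9* (8.47, 18.4 and 30.7 CPM) were called higher.

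Because members of the Foxn11089/1089 library had fewer keratin UMIs, the ratios were repeated in the 178 cells of that library and the 263 cells of the control that had at least 20 *Krt5* and *Krt17* UMIs per 10000. The log2 ratios were then -8.94 for *Cd74*, -6.87 for *Ccl21a*, -3.74 for *Relb*, -3.33 for *Nfkb2*, -2.13 for *Nfkbia*, -7.10 for *Cd40* and -4.82 for *Krt14*. Those of *Krtdap* (-0.72), *Sprr1a* (-0.03) and *Krt5* (-0.52) came closer to 0 and were no longer called. At this limit these medullary and NF-kB genes were also low, whereas *Krtdap* and *Sprr1a* were nearer to the control. The limit was chosen after seeing the data and uses *Krt5* itself. The sets stayed unlike in *Krt17*, at 1027 UMIs in the Foxn11089/1089 library and 13343 in the control (log2 ratio -3.59). The part of keratin content in these ratios was not tested.

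**Figure D4:**
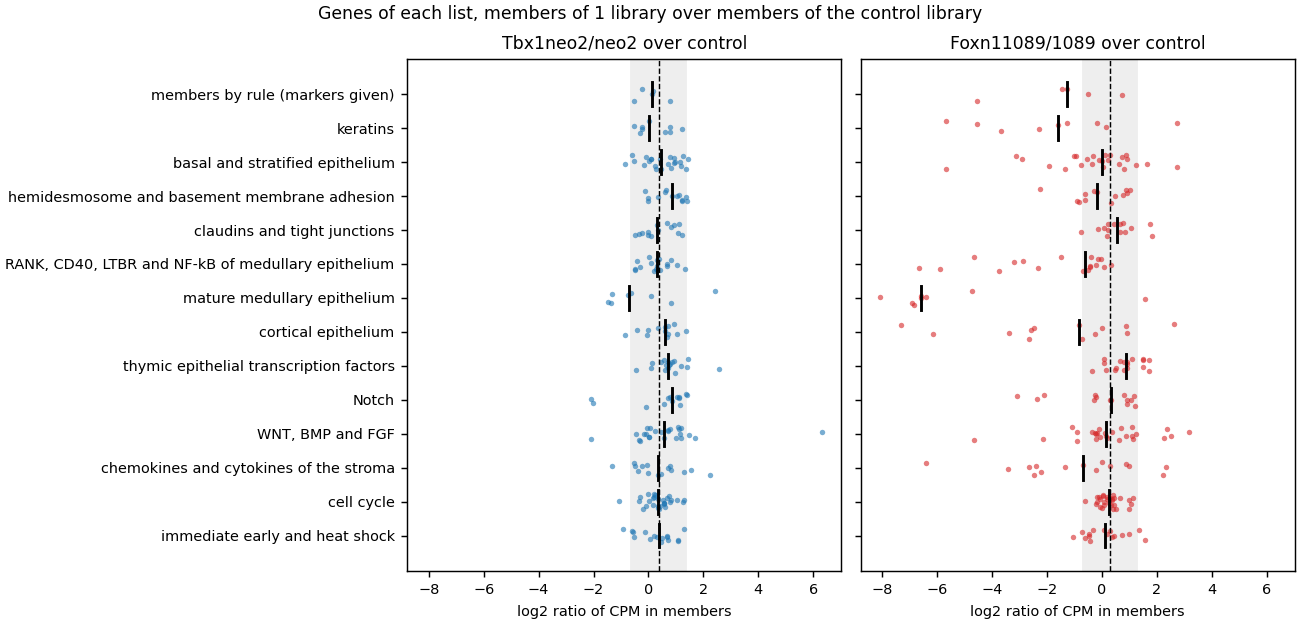
Log2 ratio of CPM in members, library labelled Tbx1neo2/neo2 over control (left) and Foxn11089/1089 over control (right), for each gene compared (points) of each list (rows), with list medians as bars, the median of all genes as a dashed line and the range between the call limits shaded. Mature medullary genes have medians of -0.70 and -6.59, whereas cell cycle genes lie inside the shaded range in the right panel.

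Genes called higher in the Foxn11089/1089 members included an enzyme, a protease inhibitor and several transcription factors. *Gstm1*, a glutathione S-transferase, stood at 109.9 CPM in the control library, 254 CPM in the library labelled Tbx1neo2/neo2 and 1629.9 CPM in the Foxn11089/1089 library, with a log2 ratio of 3.89 (from 3.77 to 4.01), and was seen in 25.7% (20.8% to 31.1%), 38.6% (28.1% to 49.9%) and 84.2% (80.6% to 87.4%) of thinned members, against 0%, 0% and 2.58% of red blood cell barcodes and 38.7%, 61.2% and 95.1% of members without thinning. *Spink8*, a serine protease inhibitor, stood at 83.3, 37.9 and 701 CPM (log2 ratio 3.07, from 2.93 to 3.22). Both were also higher in the other Epcam+ cells of that library, with log2 ratios of 3.66 and 3.11, while their level in members was above that in other Epcam+ cells in each library. The 10 genes with the highest ratios were *Capn6*, *Pla2g7*, *Cdo1*, *Gstm1*, *Gm10073*, *Trh*, *Wdfy1*, *Igfbp6*, *Zeb2* and *Meg3*. *Capn6*, a calpain without protease activity, stood at 2.502, 14.2 and 75.3 CPM (log2 ratio 4.91, from 4.13 to 5.83), and the imprinted noncoding RNA *Meg3* at 97.8, 371 and 1054 CPM (log2 ratio 3.43, from 3.30 to 3.56). *Trh*, the precursor of thyrotropin-releasing hormone, stood at 3.27, 0.197 and 49.2 CPM (log2 ratio 3.91, from 3.22 to 4.70).

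Among thymic epithelial transcription factors 5 of 18 were called higher, *Eya1*, *Tbx1* and *Elf5* among them, and 0 lower. Over all genes 9.01% were called higher and 11.8% lower. The *Tbx1* call rested on few UMIs: among keratin-rich cells *Tbx1* held 6 against 5 in the control, too few to compare. *Eya1*, a transcriptional co-activator of the pharyngeal pouch, stood at 16.9, 32.8 and 48.6 CPM (log2 ratio 1.52, from 1.20 to 1.86). *Foxn1* transcripts were present in all 3 libraries, at 90.3, 146 and 173 CPM in members, and were not called (log2 ratio 0.94, from 0.79 to 1.08). The BMP ligand *Bmp4* stood at 6.74, 13.6 and 39.2 CPM (log2 ratio 2.54, from 2.05 to 3.08), and the BMP targets *Id1* and *Id2* at 165, 364 and 853 CPM (log2 ratio 2.37, from 2.27 to 2.47) and 54.7, 123 and 492 CPM (log2 ratio 3.17, from 2.998 to 3.35). *Id1* and *Id2* were higher in other Epcam+ cells as well, with log2 ratios of 2.24 and 2.48, and that of *Bmp4* was 0.30. The WNT co-receptor inhibitor *Kremen2* was low, at 24.3, 22.7 and 0.936 CPM (log2 ratio -4.70, from -5.69 to -3.84). Of 27 genes of WNT, BMP and FGF signalling compared, 4 were called higher and 5 lower.

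Of the Notch receptors, *Notch2* was called and *Notch1* was not. *Notch1* stood at 100.3, 224 and 174 CPM and its target *Hes1* at 155, 409 and 297 CPM, and neither was called in the Foxn11089/1089 library. *Notch2* stood at 197 CPM in the control library, 48.95 CPM in the library labelled Tbx1neo2/neo2 and 23.5 CPM in the Foxn11089/1089 library, and the ligand *Jag1* at 431, 101 and 84.00 CPM. Both were lower in either hypoplastic library: the log2 ratios were -2.01 (from -2.22 to -1.81) and -3.07 (from -3.26 to -2.89) for *Notch2*, and -2.09 (from -2.23 to -1.95) and -2.36 (from -2.47 to -2.25) for *Jag1*. Other Epcam+ cells had lower *Jag1* too, with log2 ratios of -1.61 and -2.02. Of 14 Notch genes compared in the Foxn11089/1089 library 3 were called lower and 0 higher, where 11.8% and 9.01% of all genes were. Of 13 in the library labelled Tbx1neo2/neo2 2 were called lower and 1, *Hes1* (log2 ratio 1.40, from 1.28 to 1.52), higher. There 8.44% of all genes were called lower and 4.63% higher. In lists this short these counts lie near those shares.

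In the members of the library labelled Tbx1neo2/neo2, the genes with the 10 highest ratios were *Arl4c*, *Gm10073*, *Igfbp5*, *Map1b*, *Ndrg1*, *6330403K07Rik*, *Gpm6b*, *Phxr4*, *Tgfb2* and *2610037D02Rik*. *Igfbp5*, a binding protein of insulin-like growth factors, stood at 69.3 CPM in the control library, 424 CPM in the library labelled Tbx1neo2/neo2 and 460.5 CPM in the Foxn11089/1089 library, and its log2 ratio over control members was 2.61 (from 2.45 to 2.78) and 2.73 (from 2.58 to 2.89). Some of these ratios rested on 2 *Sox2* and *Foxa2* cells described last: without them that of *Arl4c* was 0.73, under the limit, and that of *Igfbp5* 1.75. *Ndrg1*, a stress-responsive gene, stood at 8.66, 46.8 and 12.9 CPM and was called in that library (log2 ratio 2.43, from 1.97 to 2.93) and not in the Foxn11089/1089 library (log2 ratio 0.57, from 0.09 to 1.08), a difference that was not tested. *Wnt7b* stood at 11.4, 31.6 and 9.98 CPM (log2 ratio 1.48, from 1.04 to 1.93), and the call ended without the 2 cells, at 0.69, and among keratin-rich members, at 0.67. *Trp63* was called higher (log2 ratio 1.45, from 1.20 to 1.70), but not with equal weight per cell, at 1.29.

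The 10 lowest ratios in that library were those of *Gm42418*, *AY036118*, *Lars2*, *Bcl2a1b* and 6 replication-dependent histone genes (*Hist1h3e*, *Hist1h2bj*, *Hist1h1a*, *Hist1h1b*, *Hist1h4h* and *Hist1h1e*). *Gm42418*, which overlaps ribosomal RNA repeats, stood at 5233, 178 and 141 CPM in members and 5850.0, 188 and 162 CPM in other Epcam+ cells. *Hist1h1b*, a linker histone, stood at 594, 75.01 and 92.8 CPM and 1037, 90.7 and 96.9 CPM. For both genes the control library stood apart from the other libraries in members and in other Epcam+ cells alike. Of 29 cell cycle genes, 0 were called higher and 1 lower in the library labelled Tbx1neo2/neo2, where 4.63% and 8.44% of all genes were. In the Foxn11089/1089 library 0 of the 29 were called, where 9.01% of all genes were called higher and 11.8% lower. The part of the cell cycle in the histone levels was not tested.

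The other lists are given by their counts. Over all genes, 9.01% were called higher and 11.8% lower in the Foxn11089/1089 library. In the library labelled Tbx1neo2/neo2 these shares were 4.63% and 8.44%. Of 13 genes of hemidesmosomes and basement membrane adhesion compared, 0 were called higher and 3 lower, *Itgb4* and *Lamb3* among them, in the Foxn11089/1089 library, and 1, *Lama3*, was called higher in the library labelled Tbx1neo2/neo2. Of 14 tight-junction genes 2 were higher and 1, *F11r*, lower in the Foxn11089/1089 library, and 0 were called in the other. Of 15 chemokine and cytokine genes 2 were higher (*Tgfb2* and *Pdgfc*) and 7 lower in the Foxn11089/1089 library, against 2 higher (*Cxcl14* and *Tgfb2*) and 1 lower in the library labelled Tbx1neo2/neo2. Of 13 cortical genes, some of them in the rule, 1 was higher and 8 lower in the Foxn11089/1089 library and 1, *Psmb11*, was lower in the library labelled Tbx1neo2/neo2. In that library 1 of 23 stratified genes was called higher and 1 lower, 3 of 18 transcription factors higher (*Trp63*, *Tbx1* and *Hes1*), and 3 of 25 WNT, BMP and FGF genes higher (*Wnt5a*, *Wnt7b* and *Shh*) and 1, *Spry2*, lower. Without the 2 *Sox2* and *Foxa2* cells *Shh* held 0 UMIs, *Wnt7b* and *Hes1* were under the limit, and *Tbx1*, with 20 UMIs against 6 in the control, was too low to compare. *Wnt5a* was under the limit with equal weight per cell (1.31) and without likely doublets (1.02).

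Within the control library the members differed among themselves. Among the 296 thinned members, 100 held 0 *Cd74* UMIs, 19 held 1 and 177 held 2 or more. This split was chosen after the data had been seen, and the sides are ends of a range. Summed over the cells as sequenced, *Krtdap* stood at 2034 CPM in cells without *Cd74* and 835 CPM in cells with it. *Krt17* stood at 1230.3 and 3319 CPM, *Relb* at 30.7 and 154 CPM, and *Nfkbia* at 283 and 928 CPM. Cells without *Cd74* were thus richer in *Krtdap* and poorer in *Krt17* and NF-kB genes. *Gstm1* stood at 265 and 27.7 CPM and *Spink8* at 196 and 24.2 CPM, both higher on the side without *Cd74*.

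In the library labelled Tbx1neo2/neo2, 44 members were without *Cd74* and 39 with it, and the levels were 1304 and 417 CPM for *Krtdap*, 1414 and 3062 CPM for *Krt17*, and 429 and 74.4 CPM for *Gstm1*. In the Foxn11089/1089 library 458 of 468 were without *Cd74*. Those 458 cells had 137 CPM of *Nfkbia*, 110.3 CPM of *Krt17* and 1632 CPM of *Gstm1*. Control members without *Cd74* had 283, 1230.3 and 265 CPM of these genes, so the libraries differed on that side of the split too.

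Cells were also ranked by *Krt5* and *Krt17* per 10000 UMIs. Between the 75 control members of the bottom 25% and the 75 of the top 25%, *Cd74* stood at 361 and 2357 CPM, *Ccl21a* at 129 and 2235 CPM, *Cd40* at 4.22 and 86.1 CPM and *Gstm1* at 244 and 7.52 CPM. In the 118 and 118 cells at the ends of the Foxn11089/1089 library *Cd74* stood at 5.68 and 3.78 CPM and *Cd40* at 0.7101 and 0.378 CPM. The latter *Cd74* levels rest on 24 and 10 UMIs. *Cd74* was thus higher in keratin-rich than in keratin-poor members of the control.

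Rank correlations across thinned members were taken over 296, 83 and 468 cells that share a library and a depth. In the Foxn11089/1089 library 10 of the 468 held a *Cd74* UMI and 6 an *H2-Aa* UMI, so correlations with these genes are given for the first 2 libraries only. Spearman's rho with *Cd74* was -0.49 and -0.39 for *Krtdap*, 0.56 and 0.37 for *Krt17*, 0.58 and 0.37 for *Nfkbia* and 0.75 and 0.71 for *H2-Aa*. In all 3 libraries *Krt18* followed *Krt8*, at 0.68, 0.86 and 0.38. *Cd40* could not be ranked in the Foxn11089/1089 library, where no thinned member held a UMI of it. These correlations carry no test.

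**Figure D5:**
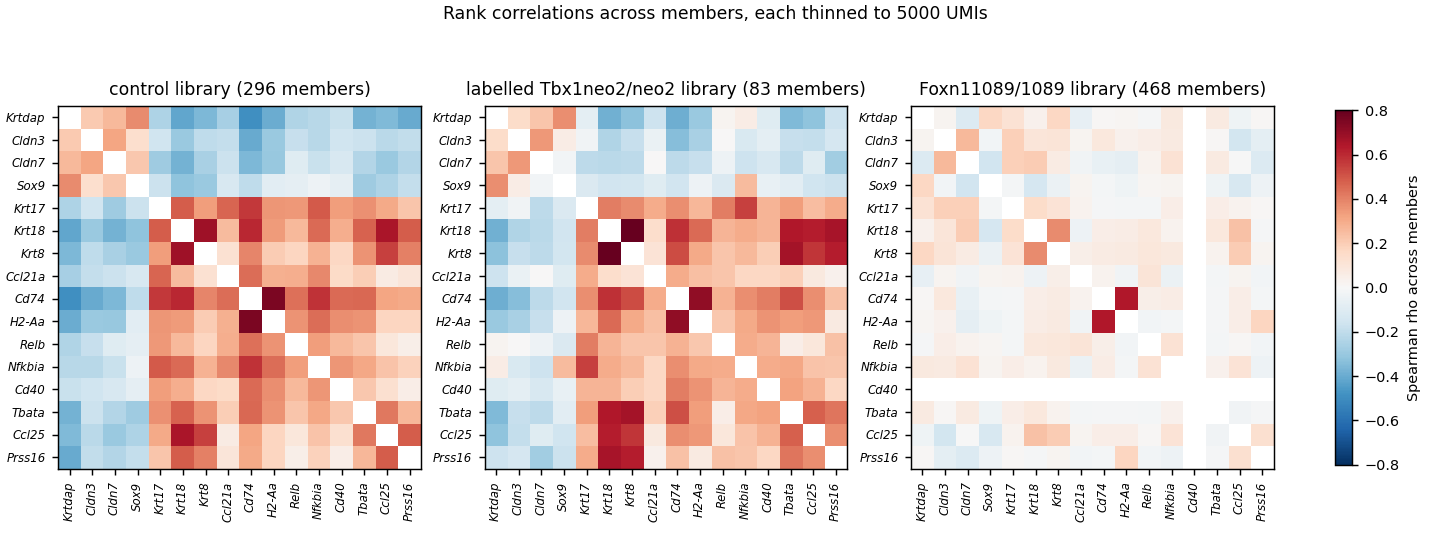
Spearman's rho between 16 genes across members thinned to 5000 UMIs, for each library (296, 83 and 468 members), with red for positive and blue for negative values and empty squares where a gene was at 0. *Krtdap* is negative and *Krt17* positive towards *Cd74* in the first 2 panels, whereas *Cd74* was seen in 10 of 468 members of the Foxn11089/1089 panel, so its values there describe few cells.

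Markers of other cell types were measured in the members. Summed over their lists, mesenchymal markers stood at 155, 154 and 252 CPM in members against 89.7, 268 and 235 CPM in cortical-like cells and 431, 2278 and 948 CPM in the remaining Epcam+ cells, and 8, 3 and 23 thinned members held 3 or more of them. All 8 mesenchymal markers had UMIs in members of each library. Hematopoietic markers stood at 23.5, 9.08 and 7.10 CPM, with *Ptprc* at 0 by the rule. Endothelial markers stood at 17.9, 13.03 and 23.0 CPM, with *Tie1* at 0 in members of the first 2 libraries and *Kdr* at 0 in the control, thyroid markers at 0.962, 11.1 and 2.57 CPM, and neural markers at 5.58, 8.49 and 18.7 CPM. Globin and *Alas2* transcripts stood at 222, 234 and 1172 CPM and parathyroid markers at 6.16, 0.592 and 62.7 CPM, at like levels in cortical-like cells (200, 245 and 1241 CPM, and 6.26, 0.773 and 60.9 CPM). At least 3 red blood cell markers were seen in 9, 10 and 371 of the 296, 83 and 468 thinned members. Against control members, 5 of 6 red blood cell, 4 of 8 mesenchymal, 2 of 4 endothelial, 4 of 4 neural and 2 of 2 parathyroid markers compared were called higher in the Foxn11089/1089 library, and 4 of 4 hematopoietic markers lower. Over all genes 9.01% were called higher and 11.8% lower. Listed markers under 30 UMIs over the pair were left out: 1 of 7 red blood cell, 2 of 6 endothelial, 2 of 6 neural, 2 of 4 parathyroid and 4 of 8 hematopoietic. Some passed through the library in which they were high, as *Kdr* with 33 UMIs against 0 in the control. The part of these markers in the differences between libraries was not tested.

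Oesophageal and airway markers stood at 6.93, 58.6 and 18.02 CPM. In the library labelled Tbx1neo2/neo2 2 members carried 109 of the 121 *Sox2* UMIs, 62 of 63 *Foxa2* UMIs, 39 of 47 *Nkx2-1* UMIs and 38 of 38 *Shh* UMIs of all members. These are genes of foregut endoderm, and the 2 cells held 0 *Foxn1* UMIs and 1 *Pax1* UMI, so they were Krt5/Krt17 cells by the rule only. Without them 459 genes were called higher and 889 lower in that library, against 505 and 920 with them.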

How the data were processed

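Thymic lobes of E13 to E13.5 embryos gave 1 3′ single-cell library for each of 3 genotypes. The deposited matrices hold raw UMI counts per gene and barcode, which the authors made with Cell Ranger 3.0.0 on mm10 and did not normalize; their Seurat clusters were not used here. Barcodes with at least 200 genes and 2000 UMIs, under 20% mitochondrial and under 5% globin UMIs were kept, and members were selected as stated in the report, with doublets (Scrublet, highest scores, 0.8% per 1000 barcodes) left in. The members and gene lists were chosen with earlier results of these data known.

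Counts were summed over the members of a library and divided by their total (5195490, 5066260 and 12822001 UMIs) to give CPM. Calls used log2 ratios with 0.5 UMI added, in genes with at least 30 UMIs, at 2-fold from the median ratio. Named ratios carry no addition and have conditional-binomial 95% intervals, shares have Clopper-Pearson intervals, and both cover counting error only. The text names listed genes, the 10 highest and 10 lowest ratios per comparison (at least 100 UMIs in the pair and 10 in each library, without mitochondrial, ribosomal, hemoglobin, Xist and Y-linked genes), and the 15 genes whose lowest ratio, over the 3 libraries, of members over other Epcam+ cells was highest (at least 100 UMIs in the members of each, rule genes left out). Some genes that these rules name are not reported here. Cells were thinned at random to 5000 UMIs for shares and correlations. The sums and calls were tested on simulated data. Gene positions are from GENCODE M21 and promoters from RefSeq. Python 3.11.15, numpy 2.4.6, scipy 1.17.1, pandas 2.3.3 and scanpy 1.11.5 were used. Alternatives covered the keratin limit, the cortical condition, doublets, mitochondrial share, thinning, centring, count minimum and equal weight per cell.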

Additional observations from a re-analysis of the deposited data

How the results depend on the processing

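No paired analysis was possible because each genotype has 1 library. Of the alternative shares of members 18 stayed within the counting interval and 6 did not. These 6 were 16.5% in the control library and 17.4% in the library labelled Tbx1neo2/neo2 with no condition on cortical genes, 14.0% and 8.99% in the Foxn11089/1089 library with at least 5 and at least 20 keratin UMIs, and 12.6% and 4.51% in the control and Foxn11089/1089 libraries with at least 20 per 10000, a setting added after seeing the data. Of the alternative counts of called genes 32 were within 1.5 times of the reported count and 10 were not. For the library labelled Tbx1neo2/neo2 the others were 1567 higher and 337 lower without centring, 591 lower with thinned members (6248 genes compared), 262 higher and 595 lower with at least 100 UMIs, and 809 higher with at least 10. For the Foxn11089/1089 library they were 1916 higher and 916 lower without centring, 887 lower with thinned members (8600 compared) and 680 higher with at least 100 UMIs. Of the 1390 genes lower and 1065 higher in the Foxn11089/1089 library, 1074 and 620 were also called among keratin-rich cells and 746 and 430 among thinned members. Of the 920 lower and 505 higher in the library labelled Tbx1neo2/neo2, 791 and 353 were also called among keratin-rich cells and only 380 and 82 among thinned members, where fewer genes reached 30 UMIs. Of 94 called ratios of genes named in the text, 82 to 94 were kept in the Foxn11089/1089 library under the alternative sets and weights of cells, and those that fell inside the limits at least once were *Krt5*, *Krtdap*, *Sprr1a*, *Sfn*, *Jup*, *Hspb1*, *Hsp90aa1*, *Junb*, *Itgb4*, *F11r* and *Elf5*. Of 50 in the library labelled Tbx1neo2/neo2, 25 to 50 were kept, with 20 not compared among thinned members, and those that fell inside were *H2-Aa*, *H2-Eb1*, *Psmb11*, *Hes1*, *Trp63*, *Wnt5a*, *Wnt7b*, *Cxcl14*, *Lama3*, *Arl4c*, *Cdo1* and *Ier2*. Without likely doublets the Foxn11089/1089 log2 ratios of *Cd74* (-8.66), *Cd40* (-7.58), *Tnfrsf11a* (-6.60) and *Nfkbie* (-5.83) were further from 0. Of the alternative log2 ratios of single named genes 652 stayed within their counting interval, 225 moved and none changed the sign of a called value, and the rank correlation of *Krtdap* with *Cd74* kept within 0.1 of its value in the control library and the library labelled Tbx1neo2/neo2. Depth limits *Aire*, *Fezf2* and *Spib*, which rest on few UMIs.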

Other observations

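Immediate early and heat shock genes were higher in members than in other Epcam+ cells of the same library, in 10, 11 and 8 of 16 genes, where 9.81%, 8.63% and 6.94% of all genes were called. *Hspb1*, a small heat shock protein, stood at 461, 653 and 226 CPM in members against 45.8, 54.9 and 26.4 CPM in other Epcam+ cells. *Fos* stood at 845, 1336 and 1659 CPM against 416, 544 and 829 CPM, and *Atf3* at 67.6, 61.4 and 199.7 CPM against 23.9, 33.3 and 92.5 CPM. Between libraries, 2 of the 16 genes were called higher (*Atf3* and *Hsp90aa1*) and 2 lower (*Junb* and *Hspb1*) in the Foxn11089/1089 members, and 1, *Ier2*, was lower in the library labelled Tbx1neo2/neo2. Among keratin-rich cells *Hspb1* (-0.42), *Junb* (-0.54) and *Hsp90aa1* (1.24) were within the limits, and *Ier2* was so in thinned members (-0.69). The cells were released with trypsin, and the part of that step in these levels was not tested.

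Set against other Epcam+ cells, 2, 1 and 1 of 29 cell cycle genes were called higher in members and 1, 2 and 1 lower. Over all genes 9.81%, 8.63% and 6.94% were called higher and 8.83%, 11.1% and 9.51% lower. *Ccnd1* was called higher in the control library only and *Ccne1* lower in the library labelled Tbx1neo2/neo2 only. *Cdkn1a*, an inhibitor of cyclin-dependent kinases, was called higher in members of each library, at 53.5, 131 and 111 CPM against 15.2, 26.1 and 26.1 CPM. *Cdkn1c*, another inhibitor, was called lower, at 86.2, 144 and 172 CPM against 246, 639 and 569.9 CPM. The proliferation genes *Mki67* (96.8, 201 and 214 CPM against 118, 242 and 194 CPM) and *Top2a* (194, 332 and 309.6 CPM against 291, 461 and 363 CPM) were called in none of the libraries.

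Of the 15 cytokine and chemokine genes compared, *Il7*, which feeds early T cells, stood at 193, 318 and 356 CPM in members and was not called in either comparison, nor was *Kitl*, at 54.3, 51.9 and 54.8 CPM. *Tgfb1* was called lower in the Foxn11089/1089 library, at 26.2, 18.2 and 4.91 CPM, and *Pdgfc* higher, at 6.74, 11.6 and 34.3 CPM.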
